A study of Mus musculus with 6 samples.

Results

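The genes described here encode 9 secreted signals of C2C12 mouse myoblasts, a cultured cell line that leaves the cell cycle and fuses into multinucleated myotubes when serum is lowered. They are the chemokines Cxcl12, Cxcl5, Cxcl1, Ccl2 and Ccl7, the cytokines Csf1 and Il6, and the heparin-binding growth factors Ptn and Mdk. They were chosen by symbol, some of them because they read low in cells with a hairpin against Rp58, and every probe set that the platform annotation pairs with exactly 1 of them was read. This gave 18 probe sets for 9 genes, out of 34958 probe sets with 1 gene for 18194 genes in the series.

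Parental C2C12 cells were profiled in growth medium with 10% fetal bovine serum and at days 0, 2 and 4 in differentiation medium with 2% horse serum, where day 0 is the point just after the confluent culture changed medium. Stable transfectants, kept in 500 µg/ml G418 for 2 weeks to select them, were profiled at day 0 and carried shRp58, a short hairpin RNA against Rp58, or a control vector, named in the labels once as LacZ and once as a control hairpin. Whether each line was 1 clone or a pool is not stated in the labels. Each of the 6 groups was 1 array, so every value below is a single measurement with no replicate error, no difference was tested, and all differences are descriptions of these arrays. Levels are log2 values as deposited, and differences are differences of log2 values, so that 1 unit is 2-fold.

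Chemokines are small secreted proteins that bind G protein-coupled receptors and heparan sulfate chains on cell surfaces, and so guide the movement of cells. CXCL12 acts on CXCR4, which myogenic precursors carry while they migrate, and it also binds the scavenging receptor ACKR3. The CXC chemokines that carry a glutamate-leucine-arginine motif, among them CXCL1 and CXCL5, attract neutrophils through CXCR2, while CCL2 and CCL7 attract monocytes. Pleiotrophin (Ptn) and midkine (Mdk) form a family of their own that binds heparin and glycosaminoglycan chains of receptors such as PTPRZ1.

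The arrays fell into 2 sets of different scale. The median of all probe sets was 8.26 to 8.27 on the time-course arrays and 7.15 on both stable-line arrays, so levels were compared within a set. The brightest probe set of a gene stood for it, and 13242 genes whose highest value reached 7.95, the median of all values, were kept. Of the 9 genes 7 were kept, and Il6 and Mdk were not. Markers of myoblasts and myotubes stood at or above the array's median in 9 of 10 cases in growth medium and in 10 of 10 on each other array. The same held for 6 of 7 fibroblast markers and 1 of 8 endothelial markers on every array. It held for 2 or 3 of 5 adipocyte markers and for 4 or 5 of 10 leukocyte and macrophage markers. In the last list Csf1r, Cd14, Adgre1 and Lyz2 lay above the median throughout the time course, with lowest values of 9.66, 9.23, 9.22 and 8.66. The pan-leukocyte gene Ptprc lay below it, at 5.43 to 5.80. Zbtb18, the current symbol of Rp58, read 11.16 in shRp58 cells and 11.69 in control-vector cells, a difference of -0.53 that lay inside the central 95% of kept genes between these arrays, -0.55 to 0.46.

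**Figure D1:**
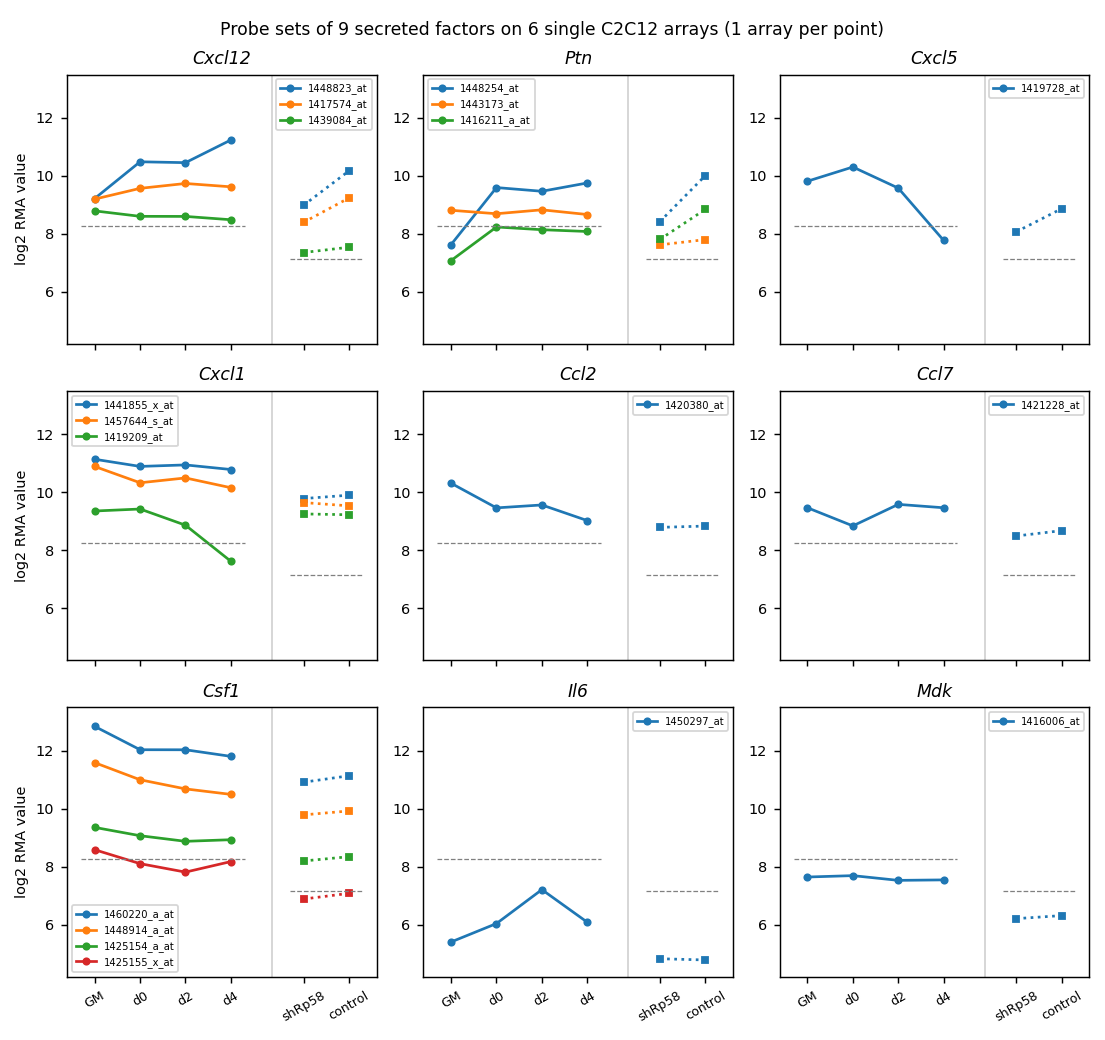
Log2 RMA values of all 18 probe sets of the 9 genes (vertical axis) on the 6 arrays (horizontal axis), with 1 array per point. GM is growth medium and d0, d2 and d4 are the days; circles with solid lines are the time course, squares with dotted lines the shRp58 and control-vector cells, and dashed grey lines the median of all probe sets in each set of arrays. The leading probe set of Ptn stood 1.97 higher at day 0 than in growth medium, that of Cxcl5 2.54 lower at day 4 than at day 0, and the 3 probe sets of Cxcl1 took different courses.

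On their leading probe sets Ptn and Cxcl12 both read higher at day 0 and later than in growth medium, and lower in shRp58 than in control-vector cells. Ptn is a secreted growth factor of developing nerve, bone and muscle. Its leading probe set (1448254_at) read 7.63 in growth medium, then 9.60, 9.47 and 9.76 on days 0, 2 and 4. Growth medium was the low array, below the 7.95 level, and the other 3 time points lay within 0.29 of each other. The difference of day 0 from growth medium was 1.97, or 3.92-fold, rank 57 from the top among 13242 kept genes. A further Ptn probe set from the same transcript record (1416211_a_at) had this shape at a lower level, with 7.08 in growth medium and 8.24, 8.14 and 8.08 at days 0, 2 and 4. The remaining one (1443173_at), designed on an expressed sequence tag, stayed between 8.67 and 8.83.

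Cxcl12, the ligand of CXCR4, read 9.22 in growth medium, then 10.49, 10.46 and 11.24 on days 0, 2 and 4 on its leading probe set (1448823_at). It thus had 2 steps, one of 1.27 at day 0 against growth medium and one of 0.78 at day 4 against day 2. The probe set 1417574_at showed the first step at 0.37 and none later, with 9.20, 9.57, 9.74 and 9.62 in time order. The probe set 1439084_at, on an expressed sequence tag, read 8.79, 8.60, 8.60 and 8.49. The size of the Cxcl12 change therefore depended on the probe set, and its late step was seen with 1 probe set of 3.

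Ptn and Cxcl12 were the only 2 of the 9 genes higher by at least 2-fold at day 0 than in growth medium, where 2.91% of kept genes were. None of the 9 was 2-fold lower, against 0.317% of kept genes. The median of all kept genes between these arrays was 0.10. When all probe sets of a gene were averaged, tag-based ones included, the difference was 1.003 for Ptn and 0.48 for Cxcl12. By the profile over all 6 arrays, centred within each set, the kept genes nearest to Cxcl12 were Ddc, the collagen gene Col1a1 and the collagen gene Col6a2, at root mean square differences of 0.15, 0.15 and 0.18 log2 units. Those nearest to Ptn were Spon2 at 0.24, Cxcl12 itself at 0.27 and Col6a2 at 0.28. Some of the 9 genes were picked for low values in the shRp58 contrast, which enters these and all nearest profiles given below. Nothing is therefore read from the nearness of Ptn and Cxcl12. Col1a1, a matrix gene, read 9.64, 10.83, 11.22 and 11.84 in time order.

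In the stable lines Ptn read 8.42 in shRp58 cells and 10.01 in control-vector cells, a difference of -1.59 or 3.01-fold, rank 16 from the bottom. The second Ptn probe set read 7.81 in shRp58 cells and 8.85 in control-vector cells (-1.04), and the tag-based one 7.62 and 7.80 in the same order (-0.18). Cxcl12 read 8.99 in shRp58 cells and 10.17 in control-vector cells on the leading probe set (-1.19), 8.40 and 9.24 on the next (-0.84), and 7.35 and 7.54 on the third (-0.18). Ptn and Cxcl12 were the 2 genes of the 9 at least 2-fold lower, and 0.619% of kept genes were; 0 were 2-fold higher, against 0.0529%. Averaged over all its probe sets, Ptn differed by -0.93 and Cxcl12 by -0.74, both short of 2-fold. Some of the 9 were picked for low values in this very contrast, so these counts describe the choice and nothing is read from them.

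Muscle and matrix genes also read lower, but by uneven amounts. All 10 myoblast and myotube markers read lower in shRp58 than in control-vector cells, with a median difference of -0.49. So did all 6 kept fibroblast markers, which include Col1a1, with a median of -0.53. Of all kept genes 51.3% read lower. Myod1, Myf5, Pax7, Cdh15 and Des differed by -0.13, -0.07, -0.09, -0.13 and -0.27. Myog and Acta1 differed by -0.72 and -0.76, and Mymk, Ckm and Myh3 were at least 2-fold lower. Among the fibroblast markers Col1a2, Pdgfra and Fbln2 differed by -0.09, -0.12 and -0.38. Pdgfrb, Col1a1 and Dcn differed by -0.68, -0.92 and -0.95. The median level of the muscle markers was 12.13 in shRp58 cells and 12.80 in control-vector cells, and 12.71 at day 0 against 11.08 in growth medium. Their part in the low Ptn and Cxcl12 values was not tested. In these cultures a lower share of differentiating cells and less transcript per cell cannot be told apart.

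**Figure D2:**
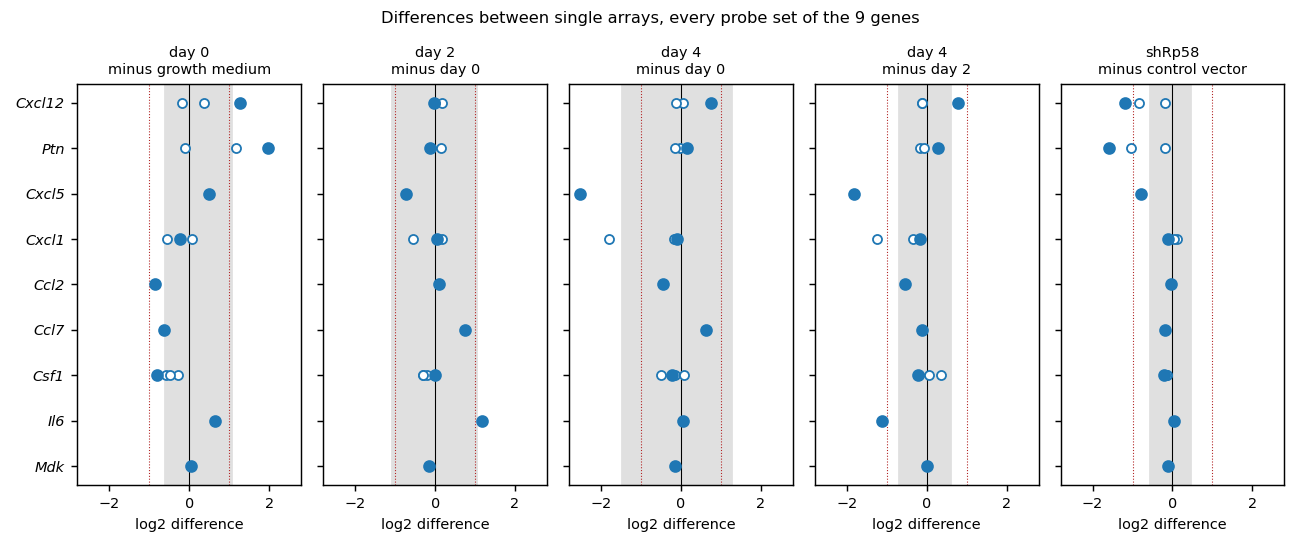
Log2 differences (horizontal axis) of every probe set of the 9 genes (rows) in 5 comparisons of single arrays. Filled circles are the probe set with the highest mean, open circles the others, grey bands the central 95% of kept genes and dotted lines 2-fold. At the confluence step the filled circles of Ptn and Cxcl12 lie above the band (1.97 and 1.27). Those of Ccl2, Csf1 and Ccl7 lie below it there (-0.85, -0.81 and -0.63). With shRp58 Ptn, Cxcl12 and Cxcl5 lie below the band (-1.59, -1.19 and -0.80). Cxcl5 also lies below it at day 4 against day 0 (-2.54) and against day 2 (-1.81). Cxcl12 lies above it at day 4 against day 2 (0.78). Open circles and Il6, which was not kept, are left out of this list.

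The start-site regions of these 2 genes are shown because both genes passed 2-fold in the same 2 comparisons. The set of regions at hand (GRCm38.p6), from 250 bases before to 50 bases after the annotated start, held 5 of the 9 genes. That of Ptn lies at chr6:36810130-36810429 on the minus strand and that of Cxcl12 at chr6:117168285-117168584 on the plus strand. Capitals would mark matches to ACATCTG, the core of the Rp58 site, the E-box CANNTG bound by myogenic factors, the TATA box TATAAA or the kappaB consensus, searched on both strands.
Ptn: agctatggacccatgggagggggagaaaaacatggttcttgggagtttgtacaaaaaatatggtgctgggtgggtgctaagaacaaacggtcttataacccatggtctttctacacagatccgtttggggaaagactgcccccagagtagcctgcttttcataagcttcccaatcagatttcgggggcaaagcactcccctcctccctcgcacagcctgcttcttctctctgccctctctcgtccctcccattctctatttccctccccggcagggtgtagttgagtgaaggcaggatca
Cxcl12: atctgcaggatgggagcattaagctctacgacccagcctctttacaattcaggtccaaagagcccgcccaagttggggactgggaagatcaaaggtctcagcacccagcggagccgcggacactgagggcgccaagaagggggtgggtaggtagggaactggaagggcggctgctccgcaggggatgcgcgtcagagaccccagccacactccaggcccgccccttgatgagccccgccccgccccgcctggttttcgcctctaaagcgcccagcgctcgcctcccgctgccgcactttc
Neither region held any of these motifs. Over 32851 such regions ACATCTG was found in 4.43%, CANNTG in 72.3%, TATAAA in 13.6% and the kappaB consensus in 4.51%. The ACATCTG motif contains an E-box, so those matches overlap. The region of Cxcl12 was 64.7% G and C with 20 CG pairs and that of Ptn 52.0% with 6, against medians of 52.7% and 7 over all regions.

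Because the stable lines could also be set against parental cells at the same day, the 2 sets were joined by reading each gene relative to the median of kept genes, which was -1.02 for either line minus parental day 0. This shift varied with level, for control-vector cells from -1.13 in the lowest to -0.88 in the highest of 5 equal groups of kept genes. On that scale Ptn stood at -0.15 in shRp58 cells and at 1.43 in control-vector cells, on the leading probe set. The second Ptn probe set stood at 0.60 in shRp58 cells and 1.63 in control-vector cells, above parental cells in both, and the tag-based one at -0.051 and 0.13 in that order. How near the shRp58 array lay to parental cells thus depended on the probe set. For the leading set quantile normalization of all arrays gave -0.098 and 1.41 in that order, and cyclic loess -0.11 and 1.47. Cxcl12 stood on both sides of parental cells, at -0.48 in shRp58 cells and 0.71 in control-vector cells on its leading probe set and at -0.15 and 0.69 on the next, while the tag-based one stood at -0.23 and -0.046. At least 2-fold differences of this kind were found for 0.325% of kept genes upward and 1.07% downward in shRp58 cells, and for 1.69% and 1.67% in control-vector cells. Transfection, selection and the scale of the sets cannot be told apart in these values.

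**Figure D3:**
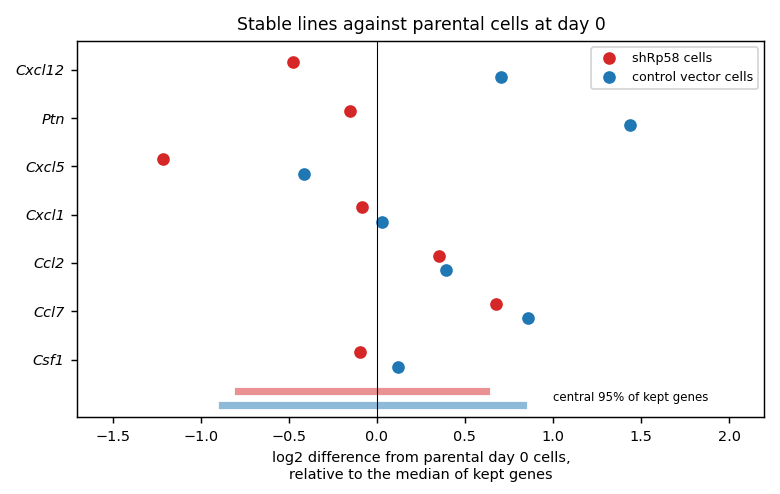
Log2 difference from parental day 0 cells, relative to the median of kept genes (horizontal axis), for the brightest probe set of the 7 kept genes (rows), in shRp58 cells (red) and control-vector cells (blue), with 1 array each. Bars at the foot span the central 95% of kept genes; Ptn lies at -0.15 in shRp58 cells and 1.43 in control-vector cells, and Cxcl5 at -1.21 and -0.42.

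Cxcl5, a neutrophil-attracting chemokine, was lower late in differentiation. Its 1 probe set (1419728_at) read 9.82 in growth medium, then 10.31, 9.58 and 7.77 on days 0, 2 and 4. Day 4 was the low array, below 7.95, which makes the size of the difference less exact. It differed by -2.54 from day 0, or 5.80-fold, and by -1.81 from day 2, rank 10 from the bottom of kept genes. Cxcl5 was the only 1 of the 9 genes at least 2-fold lower at day 4 than at day 0, where 5.66% of kept genes were, and 0 were 2-fold higher, against 3.83%. Between day 4 and day 2 the kept genes 2-fold lower and 2-fold higher each made up 0.808%, and among the 7 kept genes Cxcl5 was lower and 0 were higher.

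In the stable lines Cxcl5 read 8.07 in shRp58 cells and 8.87 in control-vector cells, a difference of -0.80 or 1.74-fold. Against parental day 0 cells on the joined scale it stood at -1.21 in shRp58 cells and -0.42 in control-vector cells, lower in both lines. The kept genes nearest to it in profile were the transcription factor gene Creb5 at a root mean square difference of 0.27, the sphingosine phosphate receptor gene S1pr3 at 0.29 and Mex3b at 0.30. S1pr3 read 9.61, 10.79, 10.11 and 8.05 in time order.

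Cxcl1, another ligand of CXCR2, had probe sets that disagreed. The one that names its RefSeq transcript (1419209_at) read 9.35 in growth medium, then 9.42, 8.86 and 7.62 on days 0, 2 and 4, a difference of -1.81 at day 4 against day 0, or 3.49-fold. The day 4 value lies below 7.95, so the size of this difference is less exact. The course had the shape of Cxcl5, with day 4 the low array. The 2 brighter probe sets (1441855_x_at and 1457644_s_at) carry suffixes that the array's maker gives to sets with probes shared with other sequences, and the annotation lists no accession for them. They read 10.79 and 10.16 at day 4, against 10.89 and 10.33 at day 0, differences of -0.11 and -0.17. In the stable lines the 3 probe sets differed between shRp58 and control-vector cells by 0.028, -0.12 and 0.11, in the order named here. The statement that Cxcl1 was lower at day 4 thus rests on 1 probe set of 3.

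Cxcl5 and Cxcl1 lie in 1 chemokine cluster of mouse chromosome 5, where RefSeq orders the protein-coding genes as Cxcl5, Ppbp, Pf4, Cxcl3, Cxcl15, Cxcl1 and Cxcl2. The other chemokine genes of this run, chosen after values were seen, gave little signal. Cxcl2, Cxcl3, Pf4 and Ppbp were below the filter, and Cxcl15 read 8.01, 7.84, 7.76 and 7.97 in time order. Among these genes the low day 4 value was seen for Cxcl5 and for 1 Cxcl1 probe set.

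The monocyte attractants Ccl2 and Ccl7 both read lower at confluence and then took separate courses. Ccl2 (1420380_at) read 10.31 in growth medium, then 9.46, 9.56 and 9.02 on days 0, 2 and 4. Growth medium was the high array, and day 0 differed from it by -0.85, rank 88 from the bottom of kept genes, though short of 2-fold; quantile normalization of the time course gave -1.01. Ccl7 (1421228_at) read 9.47 in growth medium, then 8.84, 9.58 and 9.47 on days 0, 2 and 4. Its day 0 array was thus the low one, by -0.63 against growth medium, and day 2 stood 0.74 above day 0. The growth medium and day 4 values of Ccl7 were identical to the last deposited digit, as were those of 70 of the 45101 probe sets.

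In the stable lines Ccl2 read 8.79 in shRp58 cells and 8.83 in control-vector cells (-0.045), and Ccl7 read 8.49 and 8.68 in that order (-0.19). On the joined scale Ccl7 stood above parental day 0 cells in both lines, by 0.67 in shRp58 cells and 0.86 in control-vector cells. Ccl2 stood at 0.35 in shRp58 cells and 0.39 in control-vector cells. For these 2 genes the lines lay closer to each other than to the parental array.

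Ccl2 and Ccl7 neighbour each other on chromosome 11, followed in RefSeq order by Ccl11, Ccl12 and Ccl8. Ccl8, a further monocyte attractant, read 8.83 in growth medium, then 8.82, 10.61 and 10.54 on days 0, 2 and 4. It stood 1.79 above day 0 at day 2 and 1.72 at day 4, a larger step than that of Ccl7. Ccl11, the eosinophil attractant eotaxin, was below the filter but read 6.67 at day 0, 7.57 at day 2 and 7.61 at day 4. Ccl12, also below the filter, stayed between 5.81 and 5.95. Ccl8 was the only 1 of 16 kept chemokines outside the 9 genes that was 2-fold apart in any comparison. Of all kept genes 2.67% were 2-fold higher at day 2 than at day 0, and 3.83% at day 4 than at day 0. The median difference of these 16 was 0.11 at day 2 against day 0, beside -0.014 for all kept genes, and -0.063 for shRp58 against control-vector cells, beside -0.0072.

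Csf1, the macrophage colony-stimulating factor, was highest in growing cells. Its leading probe set (1460220_a_at) read 12.84 in growth medium, then 12.04, 12.03 and 11.81 on days 0, 2 and 4. Growth medium was the high array on all 4 Csf1 probe sets, and day 0 differed from it by -0.81, -0.59, -0.29 and -0.48, from the brightest to the dimmest of them. The leading value had rank 114 from the bottom of kept genes, and quantile normalization of the time course took it just past 2-fold, to -1.001. In the stable lines it read 10.92 in shRp58 cells and 11.14 in control-vector cells (-0.22), and the other 3 probe sets differed by -0.14, -0.15 and -0.20. The nearest profiles were those of Inhba, which encodes a subunit of activins, at 0.039, Gm2115 at 0.059 and the TGF-beta pathway inhibitor gene Smad7 at 0.087. Those nearest to Ccl2 were Tinagl1 at 0.066, Senp1 at 0.090 and Mcam at 0.097.

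Il6, which encodes the cytokine interleukin-6, and Mdk gave weak signals. Il6 (1450297_at) read 5.40 in growth medium, then 6.03, 7.21 and 6.08 on days 0, 2 and 4, and 4.82 in shRp58 against 4.78 in control-vector cells. Day 2 was the high array, 1.17 above day 0, and day 4 differed from it by -1.12, but all values lay below the median of their array. With no detection calls, a difference at that level has no known precision. Mdk (1416006_at) read 7.64, 7.69, 7.53 and 7.54 in time order, and 6.20 in shRp58 against 6.31 in control-vector cells, also below the median throughout. At that level its range over the time course, 0.16, does not show whether midkine transcript changed.

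Between day 2 and day 0 none of the 7 kept genes was 2-fold apart, where 2.67% of kept genes were higher and 2.96% lower. The kept genes ran from -0.73 for Cxcl5 to 0.74 for Ccl7. Csf1 and Cxcl12 differed by -0.0016 and -0.030.

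The start-site regions of Csf1, Il6 and Cxcl1, the other 3 at hand, each held the kappaB consensus, found in 4.51% of all 32851 regions. It is the recognition sequence of the NF-kB factors that drive many inflammatory chemokine genes. For Cxcl5, Ccl2, Ccl7 and Mdk no region was at hand to search. Stretches of 40 bases are shown because Csf1, Il6 and Cxcl1 differ in this from Ptn and Cxcl12. They lie at chr3:107760599-107760638 on the minus strand for Csf1, at chr5:30013055-30013094 on the plus strand for Il6 and at chr5:90891159-90891198 on the plus strand for Cxcl1, and capitals mark the bases of the match.
Csf1: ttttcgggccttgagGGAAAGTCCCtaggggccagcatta
Il6: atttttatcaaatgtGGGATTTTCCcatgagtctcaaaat
Cxcl1: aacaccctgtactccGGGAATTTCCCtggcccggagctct
The match begins 154 bases before the annotated start in Csf1, 44 in Il6 and 71 in Cxcl1, where 2 matches on opposite strands overlap. Of 16 kept NF-kB feedback and target genes 0 were 2-fold apart in the comparisons of day 0 with growth medium, day 2 with day 0, day 4 with day 2 and shRp58 with control vector. In these comparisons at most 2.96% of all kept genes were past 2-fold in any 1 direction. Ier3, an early response gene, was the 1 gene past 2-fold, at -1.45 for day 4 against day 0, where 5.66% of kept genes were 2-fold lower. It read 10.95 in shRp58 and 10.40 in control-vector cells. The median of the list at day 0 against growth medium was 0.14, beside 0.10 for all kept genes. In that comparison Csf1 was at -0.81 and Ccl2, for which no start-site region was at hand, at -0.85. A part of NF-kB in these differences was not tested.

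**Figure D4:**
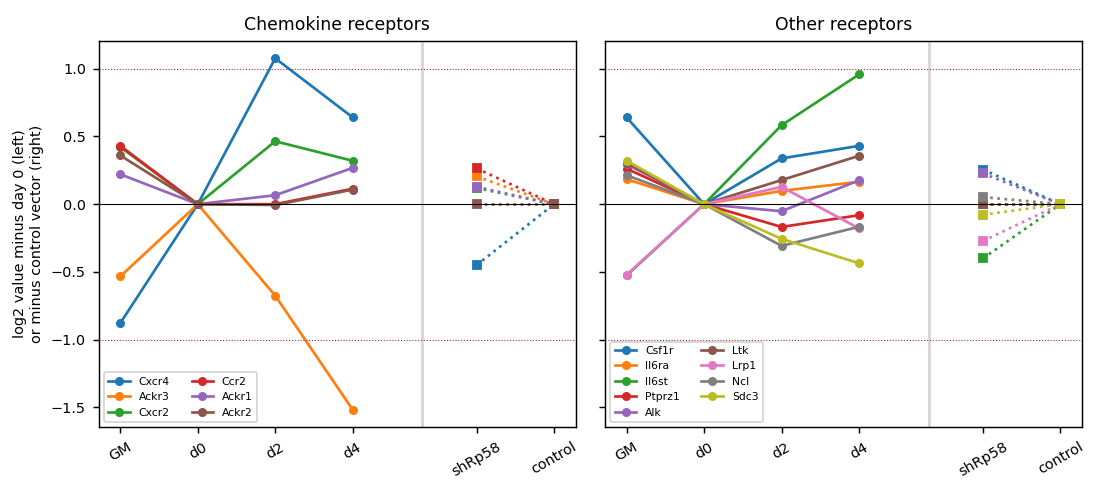
Log2 level of 15 kept receptor genes (vertical axis), set to 0 at day 0 for the time course (circles, solid lines) and at the control vector for the stable lines (squares, dotted lines), with 1 array per point. GM is growth medium, d0, d2 and d4 are the days and dotted horizontal lines mark 2-fold; Cxcr4 lies 1.08 above day 0 at day 2, and Ackr3 lies at -1.52 from day 0 at day 4.

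The receptors of Cxcl12 differed in opposite directions at day 2 against day 0, by 1.08 for Cxcr4 and -0.68 for Ackr3. Cxcr4, its signalling receptor, read 9.80 in growth medium, then 10.68, 11.76 and 11.32 on days 0, 2 and 4, so that day 2 was highest. Ackr3, the atypical receptor that takes up CXCL12, read 12.22, 12.75, 12.07 and 11.23 in time order and differed by -1.52 at day 4 from day 0. Both read higher at day 0 than in growth medium, by 0.88 for Cxcr4 and 0.53 for Ackr3, and lower at day 4 than at day 2, with differences of -0.44 for Cxcr4 and -0.84 for Ackr3. In the stable lines Cxcr4 read 8.86 in shRp58 cells and 9.31 in control-vector cells (-0.45), and Ackr3 read 11.26 in shRp58 cells and 11.06 in control-vector cells (0.21). Of 15 kept receptors, Cxcr4 was the 1 at least 2-fold higher at day 2 than at day 0, where 2.67% of kept genes were, and Ackr3 the 1 lower at day 4 than at day 0, where 5.66% were. At the confluence step and with shRp58 0 passed 2-fold. Among all kept genes 2.91% and 0.0529% were 2-fold higher there and 0.317% and 0.619% lower, in that order.

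Il6st, the signalling subunit shared by the interleukin-6 family, read 10.21, 10.74, 11.32 and 11.70 in time order, 0.96 above day 0 at day 4. The ligand-binding subunit gene Il6ra stayed between 8.63 and 8.81. Csf1r, the receptor of the colony-stimulating factor, read 10.30 in growth medium and 9.66, 9.99 and 10.09 at days 0, 2 and 4. The pleiotrophin receptor genes Ptprz1 and Alk stayed within 7.96 to 8.39 and 7.60 to 7.95, and Ltk, a kinase related to Alk, within 7.90 to 8.25. Alk and Ltk lay below the array's median throughout the time course, and Ptprz1 did at days 0, 2 and 4. At that level these ranges do not show whether the transcripts changed. Of other proteins that bind these factors, Lrp1 read 12.89 at day 4 and 12.55 in growth medium, nucleolin (Ncl) 13.37 and 13.75, and syndecan-3 (Sdc3) 10.29 and 11.04, in that order. Ccr2 and Cxcr2, the receptors for Ccl2 and for Cxcl1 and Cxcl5, ranged over 9.68 to 10.11 and 7.92 to 8.38 in the time course. Between the stable lines Il6ra, Ptprz1 and Ltk had identical values, as did 1032 of the 45101 probe sets, whereas Il6st differed by -0.40 and Csf1r by 0.26.

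Of 13 kept interleukin-6 family signalling genes 12 lay above 0 at day 0 against growth medium, where 61.2% of all kept genes did. The smallest of the 12 were near 0, at 0.0027 for the kinase gene Jak2 and 0.015 for Pim1. The median was 0.53 beside 0.10 for all kept genes. The oncostatin M receptor gene Osmr was the 1 past 2-fold, at 1.08, where 2.91% of kept genes were 2-fold higher. Osmr read 8.94 in growth medium, 10.02 at day 0 and 11.00 at day 2, and 8.91 in shRp58 against 9.59 in control-vector cells. Quantile normalization of the time course lowered the day 0 difference from growth medium for the 7 kept genes of the 9, for Cxcl12 from 1.27 to 1.11. It raised that difference for the dimmer Il6 and Mdk. The interleukin-6 list was not read under it, so the part of a shift with level in its count and median was not tested. At day 4 against day 0 the median was -0.29, beside -0.044 for all kept genes. Pias3, an inhibitor of STAT3, was the 1 past 2-fold, at -1.10, where 5.66% of kept genes were 2-fold lower. No gene of this list passed 2-fold with shRp58, against 0.619% of kept genes lower and 0.0529% higher. The median there was -0.12, beside -0.0072 for all kept genes.

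Chemokines, pleiotrophin and midkine bind heparan sulfate, which surface and secreted proteoglycans carry. Of 20 kept heparan sulfate proteoglycan and enzyme genes 18 lay above 0 at day 0 against growth medium, where 61.2% of all kept genes did, with a median of 0.29 beside 0.10. This list too was read only in the values as deposited, so the part of a shift with level was not tested. Among the syndecans the differences were 0.69 for Sdc1, 1.11 for Sdc2, -0.32 for Sdc3 and 0.065 for Sdc4. Syndecan-2 (Sdc2) was the 1 past 2-fold, where 2.91% of kept genes were 2-fold higher, and read 11.41, 12.51, 13.10 and 13.40 in time order. Syndecan-1 (Sdc1) was the 1 past 2-fold at day 4 against day 2, at -1.01, with 11.66 at day 4 and 12.67 at day 2. There 0.808% of kept genes were 2-fold lower. With shRp58 14 of the 20 lay below 0, where 51.3% of all kept genes did, with a median of -0.077 beside -0.0072. In that comparison 0 of the 20 passed 2-fold, against 0.619% of kept genes lower and 0.0529% higher.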

How the data were processed

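The authors made the deposited log2 values with the RMA algorithm from Affymetrix mouse whole-genome arrays that each received 10 ug of cRNA, per the series' design text. The program used, and whether all arrays entered 1 RMA run, were not stated there. The annotation gave 1 gene for 34958 of 45101 probe sets, several for 932, and 9211 had none or were not listed. A gene was represented by its probe set with the highest mean over 6 arrays. Differences were taken between single arrays and called past 2-fold. No detection calls were used, and the number of arrays limits precision. Arrays were grouped by title. No test or p-value was possible with 1 array per group. The members and lists were chosen with earlier results of these data known. Named genes were all members, their receptors, genes of the lists past 2-fold (at most 4 in each direction), the 3 nearest profiles of each kept member with a range of at least 1 log2 unit, Zbtb18, markers, and chromosomal neighbours, which were chosen after values were seen. Counting was tested on simulated data. Alternatives used R 4.3.3 and limma 3.58.1, with Python 3.11.15 for the rest.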

Additional observations from a re-analysis of the deposited data

How the results depend on the processing

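No paired analysis was possible because each group holds 1 array, and for the same reason no array could be left out. The 8 differences of the 9 genes past 2-fold include those of Il6 (1.17 and -1.12), which was not kept. Of these 8, 0 changed sign under the other normalizations and probe set rules, and 37 of all 45 differences kept their sign under each of these 6 settings. Much of this was fixed in advance. A difference past 2-fold changes sign only with a shift of at least 1 log2 unit, so the 0 of 8 says little. Cxcl5, Ccl2, Ccl7, Il6 and Mdk have 1 probe set each, so the probe set rules could not change their values. Leaving out _x_at and _s_at probe sets could change only Cxcl1, whose leading probe set has such a suffix. The mean of all probe sets left 1 gene (Ptn) 2-fold up at day 0 against growth medium, with Cxcl12 at 0.48, and 0 genes 2-fold lower with shRp58, where Ptn was at -0.93 and Cxcl12 at -0.74; the cause was not tested. Quantile normalization, within each set or over all arrays, put 2 genes (Ccl2 and Csf1) 2-fold lower at day 0 than in growth medium, and cyclic loess 1 (Csf1); the cause was not tested. With no filter Il6 was added, giving 1 gene higher at day 2 than at day 0 and 2 lower at day 4 than at day 2. At 1.5-fold 3 genes were lower at day 0 than in growth medium (Ccl2, Ccl7 and Csf1), 1 higher (Ccl7) and 1 lower (Cxcl5) at day 2 than at day 0, 2 higher at day 4 than at day 0 (Cxcl12 and Ccl7) 1 higher at day 4 than at day 2 (Cxcl12), and 3 lower with shRp58 (Cxcl12, Cxcl5 and Ptn). Leaving out probe sets ending in _x_at or _s_at, chosen after seeing the data, added Cxcl1 to the genes lower at day 4, for 2 against day 0 and 2 against day 2. Centring, a filter on the mean and a filter on the median of each set of arrays left all 10 counts as they were. Signal below 7.95 limits what can be said of Il6 and Mdk, of Ptn in growth medium and of Cxcl5 and 1 Cxcl1 probe set at day 4.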

Other observations

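Of 13 other kept secreted cytokines 2 were up at least 2-fold at day 0 against growth medium: the alarmin gene Il33, at 11.13 against 8.89 (2.24), and the epithelial cytokine gene Tslp, at 8.38 against 6.69 (1.69), which is below 7.95. Of all kept genes 2.91% were. At day 2 against day 0 2 were higher, Il15, a cytokine made by muscle, at 9.09 against 7.66 (1.43), and Il1b, an inflammatory cytokine, at 8.56 (1.57), both below 7.95 at day 0; 2.67% of kept genes were higher. At day 4 against day 0 Il15 was 1.34 higher, and Clcf1, Il34 and Il33 were at -1.28, -1.36 and -1.09, where 3.83% of kept genes were 2-fold higher and 5.66% lower. Il34 encodes a second ligand of the CSF1 receptor, and read 8.35, 8.69, 7.90 and 7.34 in time order. With shRp58 0 of the 13 passed 2-fold, against 0.619% of kept genes lower and 0.0529% higher.

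Of 18 kept further heparin-binding factors 2 were up at least 2-fold at day 0 against growth medium, hepatocyte growth factor (Hgf) at 10.21 against 8.76 (1.45) and Igfbp5 at 14.11 against 12.90 (1.21), and Ccn2 was lower, at 10.28 against 11.80 (-1.52), where 2.91% of kept genes were higher and 0.317% lower. Hgf, which activates satellite cells, stood at 10.34 at day 2 and 8.74 at day 4. It differed by -1.47 at day 4 from day 0 and by -1.60 from day 2. Tgfb3 and Bmp4, both of the TGF-beta family, were 1.68 and 1.83 higher at day 4 than at day 0, and Ccn2 1.49, where 3.83% of kept genes were 2-fold higher and 5.66% lower. Tgfb3 was already 1.27 higher at day 2, where 2.67% of kept genes were 2-fold higher. Bmp4 was 1.19 higher at day 4 than at day 2, where 0.808% of kept genes were 2-fold higher and 0.808% lower. Hbegf, a ligand of the EGF receptor, differed by -1.12 at day 2 from day 0, where 2.96% of kept genes were 2-fold lower. With shRp58 0 of these 18 passed 2-fold, against 0.619% of kept genes lower and 0.0529% higher. Tgfb3 (-0.70) and Fgf7 (-0.66) were lowest.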
